A study of Mus musculus with 9 samples.

Results

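The genes of the mitochondrial genome were the 37 rows of the count table that lie on chromosome MT, of 58735 genes in all. They comprised 13 protein genes, 2 ribosomal RNA (rRNA) genes and 22 transfer RNA (tRNA) genes. They were measured by RNA sequencing of Caki, a long-established cell line from human clear cell carcinoma of the kidney, with 3 libraries in each of 3 groups. MX cells carried the empty retroviral vector, YAP1 cells the vector with wild-type YAP1, a transcriptional coactivator of the Hippo pathway, and YAP1-S127A cells the constitutively active form with alanine in place of a serine. All 3 groups were grown in DMEM/F12 with serum and selected with G418. The labels do not say whether a group was a pool or 1 clone, and they do not name the promoter that drives the construct. It is not stated if replicate libraries derive from separately grown cultures, so every p-value rests on a spread between libraries that may be technical. The organism label says mouse, but the table lists human genes and is read here as human.

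Mitochondrial DNA is a small circle that is transcribed from both strands into long precursors. Excision of the tRNAs, which lie like punctuation between the other genes, releases the messenger RNAs and rRNAs. The messenger RNAs encode core subunits of the respiratory chain (complexes I, III and IV) and of ATP synthase (complex V), which join many nuclear-encoded subunits. In proximal tubule cells, from which clear cell carcinoma is thought to arise, oxidative phosphorylation feeds transport, and tumours of this kind rely heavily on glycolysis. The libraries were made from messenger RNA, so mitochondrial RNAs without a poly(A) tail, such as mature tRNAs, are captured poorly.

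Libraries held 15789722 to 24811150 counts, so that 3 counts stand for 0.121 to 0.190 CPM, which scales a library's counts to a common total. Of the kidney markers, PAX8 was at 226 to 339 CPM of total counts, and keratin genes KRT8 and KRT18 and VIM were abundant, while PAX2, CA9, LRP2 and AQP1 stayed below 1.54 CPM or at it. CDH6, a cadherin of kidney tubules, differed across the groups. It was at 696, 596 and 611 CPM of total counts in MX, 321, 275 and 264 with YAP1 and 115, 119 and 105 with YAP1-S127A, with no overlap. It fell on the log2 scale by 1.08 (SE 0.12, adjusted p = 6.88e-06) with YAP1 and by 2.21 (SE 0.12, adjusted p = 4.03e-10) with YAP1-S127A against MX, and KRT8 rose by 0.65 (SE 0.17, adjusted p = 0.0121) with YAP1-S127A; the part of these differences in the mitochondrial result was not tested. Summed leukocyte and endothelial markers did not exceed 1.60 and 2.14 CPM in any library, and CD3E was at 0. YAP1-S127A replicates 1 and 3 stood apart in what follows and held the highest mitochondrial shares of all 9. YAP1-S127A replicate 2 lay close to the highest MX library.

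Mitochondrial transcripts took a larger share of the counts in every YAP1-S127A library than in any MX library, and the shares varied widely within each group. All 37 genes together took 5.89, 6.60 and 1.896% of counts in MX replicates 1, 2 and 3, 3.50, 8.60 and 11.4 in the YAP1 replicates and 29.6, 7.40 and 21.2 in the YAP1-S127A replicates. The 95% Wilson interval of a library's share, which covers counting error only, was at most 0.0443 percentage points wide, far less than the differences between replicates. The geometric mean share was 3.98 times as high with YAP1-S127A as in MX. In a two-sided exact permutation test over all assignments of the 9 libraries to 3 groups, p was 0.136, where 0.00357 is the smallest value the design allows. Without YAP1-S127A replicate 2 it was 0.0464, and without any other 1 library it was 0.1 to 0.304, highest without YAP1-S127A replicate 1. The labels give no sequencing or extraction batch, so no value within batches can be given. In bulk RNA, more transcripts in every cell and a larger part of cells rich in mitochondrial RNA cannot be told apart.

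By biotype, the 13 protein genes took 5.20, 5.79 and 1.56% of counts in MX replicates 1, 2 and 3, 2.97, 7.36 and 9.94 in the YAP1 replicates and 25.0, 6.36 and 18.4 in the YAP1-S127A replicates. The 2 rRNA genes took 0.662, 0.771 and 0.322% of counts in MX replicates 1, 2 and 3, 0.508, 1.21 and 1.43 in the YAP1 replicates and 4.43, 1.00 and 2.72 in the YAP1-S127A replicates. For these genes the lowest YAP1-S127A library lay just above the highest MX library, and the YAP1 libraries overlapped both other groups. The 22 tRNA genes together took 0.0163 to 0.124% of counts. By strand, the 28 genes listed on the plus strand took 1.86 to 6.51% of counts in MX, 3.45 to 11.3% with YAP1 and 7.29 to 29.2% with YAP1-S127A. The 9 genes on the minus strand took 0.0326 to 0.0877%, 0.0486 to 0.137% and 0.114 to 0.328%. On both strands the YAP1-S127A libraries lay above the MX libraries, and YAP1 overlapped both other groups.

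**Figure D1:**
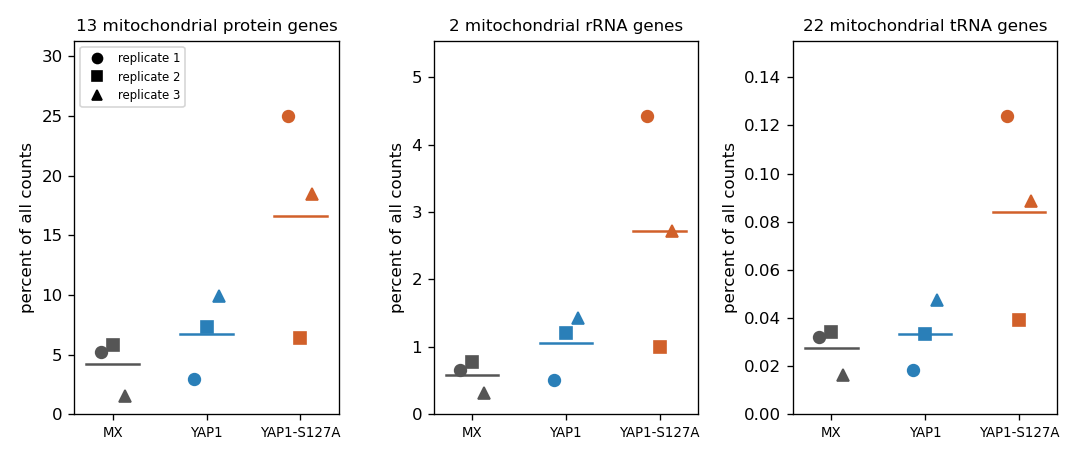
Percent of all counts taken by the mitochondrial protein, rRNA and tRNA genes in each library, with the group mean as a bar (n = 3). YAP1-S127A replicates 1 and 3 are the highest points in all 3 panels, and YAP1-S127A replicate 2 lies close to MX replicates 1 and 2.

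The order of the genes within a library was far more stable than the total. Levels below are CPM after TMM scaling (trimmed mean of M-values, which sets libraries to a common scale by genes that differ little), and levels of different genes are compared only per kilobase of gene length. MT-CO2 and MT-CO1, which encode catalytic subunits of cytochrome c oxidase, had the highest mean levels over the 9 libraries, 16653 and 16185 CPM per kilobase. In each library 1 of them ranked first among the 13 protein genes. MT-CO3, the third subunit of that complex, followed with 14215 CPM per kilobase, then MT-ND4 of complex I with 13674 and MT-ATP6, the proton channel subunit of ATP synthase, with 10087. The large-subunit rRNA MT-RNR2 had 8766 CPM per kilobase and the small-subunit rRNA MT-RNR1 2334, in libraries made from messenger RNA.

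Complex I genes ranged widely. MT-ND2 had 7395, MT-ND1 6925, MT-ND3 6689 and MT-ND4L 6378 CPM per kilobase, whereas MT-ND6 and MT-ND5 had 1764 and 1434. MT-CYB, the cytochrome b of complex III, had 4005. MT-CYB, MT-ND6, MT-ND5 and MT-ATP8 ranked 10, 11, 12 and 13 of 13 in each of the 9 libraries. MT-ND6 is the only protein gene on the minus strand (positions 14149 to 14673) and abuts MT-ND5 (12337 to 14148). Its level per base was 1.15 to 1.41 times that of MT-ND5 in the 9 libraries. The library kit keeps strand, but no source used here says whether the counting used it, so RNA from the opposite strand at MT-ND6 cannot be told apart from its own.

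Some mitochondrial genes share bases on the same strand, and counting can split or drop such reads. MT-ATP8, an accessory subunit of ATP synthase, and MT-ATP6 share 46 bases, and MT-ND4L and MT-ND4 share 7. Each pair is known to be carried on 1 messenger RNA. Per base, MT-ATP8 had only 0.0214 to 0.0283 of the MT-ATP6 level, and MT-ND4L 0.410 to 0.597 of the MT-ND4 level. The level of MT-ATP8, at 207 bases the shortest protein gene, is therefore uncertain.

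**Figure D2:**
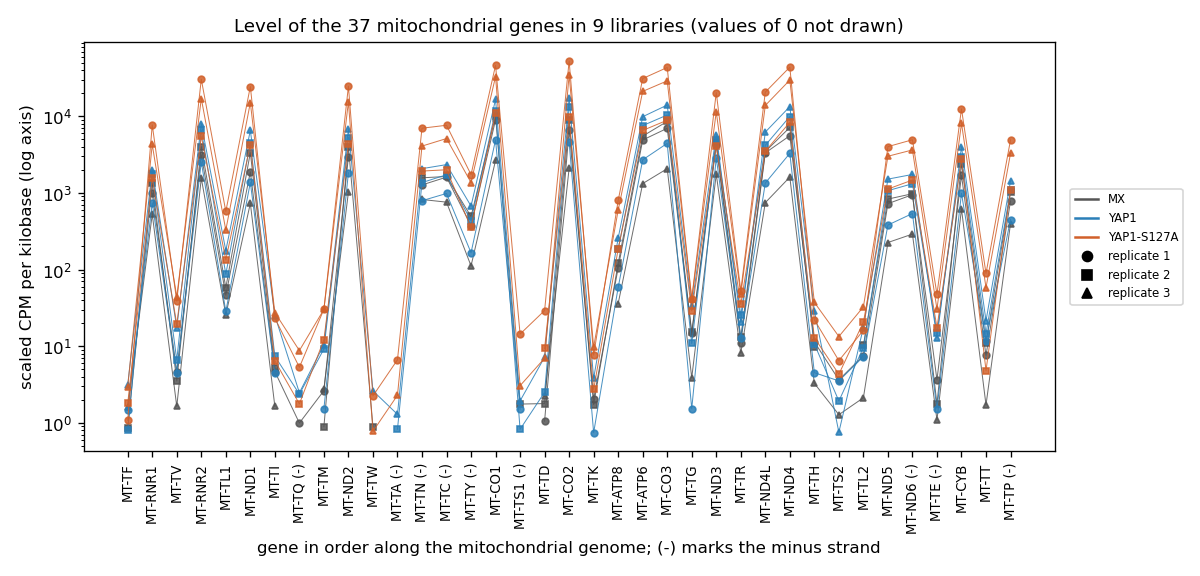
Level of the 37 genes in genome order, in scaled CPM per kilobase on a log axis, 1 line per library coloured by group. The 9 lines run nearly parallel over the protein and rRNA genes, with YAP1-S127A replicates 1 and 3 on top, and most tRNA genes lie orders of magnitude below.

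Against MX, the mitochondrial genes had higher mean levels with YAP1-S127A throughout, but the protein and rRNA genes did not pass the test. Calls were made at an adjusted p under 0.05 in edgeR's quasi-likelihood test on the whole table (Benjamini-Hochberg over 15492 genes). Its filter on low counts kept 29 of the 37 genes. Among them 7 rose, all tRNA genes, and 0 fell, where 9.53% of all tested genes rose and 8.84% fell. Of the 7, 4 had 0 MX libraries at the level the filter asks for. These 4 entered the test only through libraries in which they were higher, so their calls are no independent support. Of the 13 protein genes 0 were called, 13 had an unadjusted p under 0.05 and a positive log2 fold change, beside 16% of all tested genes. All 29 mitochondrial genes had a positive log2 fold change, beside 49.5% of all tested genes. The median log2 fold change of the 13 was 2.32 (range 1.76 to 2.87, SE 0.67 to 0.95, adjusted p = 0.0795 to 0.156), beside -0.00449 over all tested genes. The libraries of both groups did not overlap for 26 of the 29 genes, beside 16.7% of all tested genes not overlapping in that direction. The 3 exceptions, MT-ND3, MT-TT and MT-TY, overlapped. The protein and rRNA genes largely moved together with a library's mitochondrial share. Counts of them, here and in the other comparisons, are therefore not counts of independent observations. The exact permutation test of that share, with 1 value per library, gave p = 0.136 over the 3 groups.

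This outcome changed with the way the spread was estimated, with the program and with the libraries used. The robust fit let the mitochondrial protein genes borrow little from other genes (median prior degrees of freedom 0.283, against 12.98 over all tested genes). Their biological coefficient of variation was 0.533 to 0.727, against a median of 0.131 over all tested genes. With non-robust dispersions 27 of the 29 were called, with DESeq2 27 and with limma-voom 27. Of all 15492 tested genes these settings called 2840, 3091 and 2840, beside 2845 in edgeR's test as described. Without YAP1-S127A replicate 2 the robust fit called 14 of 29 tested, beside 2276 of 16086 genes in all. The median log2 fold change of the mitochondrial genes was then 2.71 in place of 2.31. Leaving out YAP1-S127A replicate 1 gave a median of 1.82, MX replicate 3 a median of 1.92 and YAP1-S127A replicate 3 a median of 2.28. Without MX replicate 3, YAP1-S127A replicate 1 or YAP1-S127A replicate 3, left out singly, the robust fit called 5. Those fits called 2171 of 15763, 2445 of 16107 and 1847 of 15782 genes in all.

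Complex I genes are described first. MT-ND1 (ENSG00000198888, MT positions 3307 to 4262), a core membrane subunit at the quinone site, was at 1805, 3213 and 700.4 CPM in MX replicates 1, 2 and 3, 1311, 4328 and 6283 in the YAP1 replicates and 23423, 4078 and 14443 in the YAP1-S127A replicates. No MX library reached the YAP1-S127A range. Its group means were 1906 ± 1259, 3974 ± 2505 and 13981 ± 9680.5 CPM (SD, n = 3), and its log2 fold change against MX was the highest of the 13 with YAP1-S127A, 2.87 (SE 0.95, adjusted p = 0.0933). The other membrane-arm subunits had 2.48 for MT-ND2, 2.51 for MT-ND4, 2.33 for MT-ND4L and 2.20 for MT-ND5. MT-ND6 had 2.18 (SE 0.72, adjusted p = 0.0933). MT-ND3, a small subunit next to the quinone site, was at 1459, 1604 and 610.1 CPM in MX replicates 1, 2 and 3, 996, 1706 and 1993 in the YAP1 replicates and 7066, 1433 and 3961 in the YAP1-S127A replicates. It had the lowest value of the 13, 1.76 (SE 0.67, adjusted p = 0.130), and was the only protein gene whose YAP1-S127A and MX libraries overlapped.

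For complex III, MT-CYB (positions 14747 to 15887) was at 704 to 2752 CPM in MX, 1126 to 4555 with YAP1 and 3157 to 14286 with YAP1-S127A, with a log2 fold change of 2.31 for YAP1-S127A against MX. For complex IV, MT-CO1 (ENSG00000198804, positions 5904 to 7445), which holds the oxygen-reducing centre, was at 13866, 15533 and 4107 CPM in MX replicates 1, 2 and 3, 7616, 18177 and 25702 in the YAP1 replicates and 71592, 16986 and 51040.3 in the YAP1-S127A replicates. The lowest YAP1-S127A library exceeded the highest MX library by less than the spread within MX. Its log2 fold change was 2.06 (SE 0.78, adjusted p = 0.131), beside 2.47 for MT-CO2, which takes electrons from cytochrome c, and 2.21 for MT-CO3. For complex V, MT-ATP6 had 2.32 and MT-ATP8 2.61.

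The rRNAs of the mitochondrial ribosome had fold changes of like size. MT-RNR2 (ENSG00000210082, positions 1671 to 3229) was at 4908, 6290.3 and 2430.0 CPM in MX replicates 1, 2 and 3, 3972, 10300.0 and 12380.5 in the YAP1 replicates and 47554, 8542 and 26619 in the YAP1-S127A replicates. The YAP1-S127A libraries lay above all MX libraries, and the lowest of them lay within the YAP1 range. Relative to MX its log2 value was 2.60 (SE 0.77, adjusted p = 0.0676) with YAP1-S127A and 0.97 (SE 0.74, adjusted p = 0.562) with YAP1. MT-RNR1 had 2.26 (SE 0.71, adjusted p = 0.0808) and 0.68 (SE 0.68, adjusted p = 0.679).

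With wild-type YAP1 no mitochondrial gene was called against MX. The count was 0 higher and 0 lower of 29 in edgeR's test, with 5 higher at an unadjusted p under 0.05, all tRNA genes (beside 9.73% of all tested genes), and 1 called by DESeq2 and 0 by limma-voom. Of these 5, MT-TE, MT-TI, MT-TM and MT-TV did not pass the filter on low counts within YAP1 and MX alone. Of all tested genes 3.23% rose and 3.58% fell. The 13 protein genes had log2 fold changes from 0.35 (MT-ND3) to 1.06 (MT-ND1), with a median of 0.75 beside -0.00361 over all tested genes, and SEs of 0.65 to 0.91. Over the 29 genes the median was 0.80, and it was 0.41 without MX replicate 3, 0.40 without YAP1 replicate 3 and 1.15 without YAP1 replicate 1. All 29 genes had a positive log2 fold change, as did 49.5% of all tested genes. Libraries of YAP1 and MX overlapped for each of the 13 protein genes, and of the 29 genes only MT-TT did not overlap, beside 12.1% of all tested genes in that direction. YAP1 replicate 1 had a smaller mitochondrial share than MX replicates 1 and 2, and YAP1 replicates 2 and 3 a larger one than any MX library.

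Between the constructs, edgeR called 0 genes higher and 0 lower of 29, with 7 higher at an unadjusted p under 0.05 (beside 6.58% of all tested genes), 2 called by DESeq2 and 0 by limma-voom. Of all tested genes 1.13% were higher with YAP1-S127A and 0.839% lower. The 13 protein genes had log2 fold changes of 1.41 to 1.81 (adjusted p = 0.471 to 0.564), with a median of 1.55 beside 0.00559 over all tested genes. All 29 had a positive log2 fold change and 4 did not overlap (MT-TE, MT-TM, MT-TR and MT-TV), beside 50.9% and 10.3% of all tested genes. Of these 4, MT-TE, MT-TM and MT-TV reached the level the filter asks for in only 2, 2 and 1 YAP1 libraries. YAP1-S127A replicate 2 lay within the YAP1 range for MT-CO1, MT-ND1 and MT-RNR2, while the other 2 YAP1-S127A libraries lay above it. The 3 comparisons share libraries, so their values are not independent of each other.

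**Figure D3:**
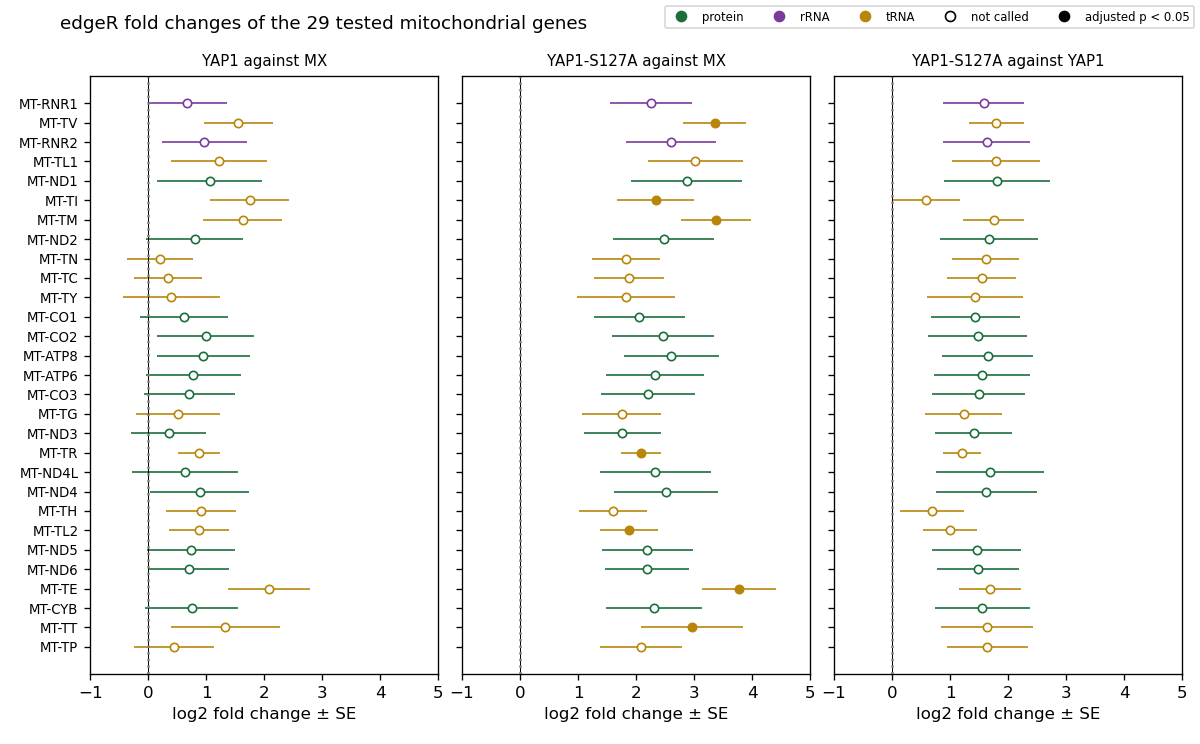
Log2 fold change with its standard error for the 29 tested genes in the 3 comparisons, in genome order, with filled points for an adjusted p under 0.05 and a dotted line at the median of all tested genes. All points lie above 0, and the 7 filled points are tRNA genes in YAP1-S127A against MX.

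The tRNA genes fell into an abundant few and many near the floor. Of 82796 tRNA counts over the 9 libraries, 95.7% lay in the 8 genes on the minus strand, although 14 of the 22 genes are on the plus strand. MT-TC (cysteine) and MT-TN (asparagine), which are neighbours on the minus strand, had 2649 and 2325 CPM per kilobase, MT-TP (proline) 1609.8 and MT-TY (tyrosine) 634. The first pair of these exceeded MT-ND6, the protein gene of their strand. Their neighbour on the same strand, MT-TA (alanine), had only 12 counts in all. The highest plus-strand tRNA gene was MT-TL1 (leucine), which lies between MT-RNR2 and MT-ND1, with 162 CPM per kilobase, and the lowest of the 22 were MT-TW (tryptophan), MT-TA and MT-TF (phenylalanine). Since tRNA genes are 59 to 75 bases long, a read in one may come from a longer precursor or antisense RNA, which the counts do not separate.

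Of the 22 tRNA genes 14 were tested and 7 rose with YAP1-S127A against MX. MT-TC was at 106, 108 and 50.0 CPM in MX replicates 1, 2 and 3, 64.9, 114 and 155 in the YAP1 replicates and 505, 132 and 339 in the YAP1-S127A replicates. Its YAP1-S127A libraries lay above MX, and its log2 fold change was 1.89 (SE 0.60, adjusted p = 0.0846). MT-TN, MT-TP, MT-TY and MT-TL1 had 1.83, 2.09, 1.83 and 3.02, and none of these 5 was called. MT-TG (glycine) and MT-TH (histidine) had 1.75 and 1.60 and were not called either. The 8 untested genes, MT-TA, MT-TD, MT-TF, MT-TK, MT-TQ, MT-TS1, MT-TS2 and MT-TW, held 8 (MT-TW) to 67 (MT-TD) counts each over the 9 libraries. Each of the 8 was at 0 in at least 1 library.

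The 7 called genes were all scarce. MT-TE, MT-TI, MT-TM and MT-TV had 0 MX libraries at the level the filter asks for (0.563 CPM of total counts in 3 libraries), so they entered the test only through libraries in which they were higher, and their calls are no independent support for a difference. Of the 7 genes, MT-TL2, MT-TR and MT-TT also passed the filter within YAP1 and MX alone. MT-TE (glutamate) had 7, 2 and 2 counts in MX, 2, 18 and 20 with YAP1 and 43, 19 and 40 with YAP1-S127A, and its log2 fold change was 3.77 (SE 0.64, adjusted p = 3.28e-04). MT-TV (valine), which lies between the rRNA genes, had 9, 4 and 3 counts in MX, 6, 8 and 27 with YAP1 and 35, 21 and 58 with YAP1-S127A, and rose by 3.35 (SE 0.54, adjusted p = 1.73e-04). MT-TM (methionine) rose by 3.38 (SE 0.61, adjusted p = 5.29e-04) and MT-TR (arginine) by 2.09 (SE 0.34, adjusted p = 2.34e-04). MT-TT (threonine), MT-TI (isoleucine) and MT-TL2 (leucine) rose by 2.96, 2.34 and 1.88, with adjusted p = 0.0459, 0.0196 and 0.0114. MT-TT overlapped between the groups, since YAP1-S127A replicate 2 held only 5 of its counts. Single libraries ended calls: MT-TT was lost without any 1 of the libraries other than YAP1-S127A replicate 2, MT-TI without MX replicate 3 or YAP1-S127A replicate 1 or 3, and MT-TL2 without MX replicate 3 or YAP1-S127A replicate 3. The MT-TT call was also lost with the replicate block, limma-voom, total counts, total counts without mitochondrial genes and only the groups compared (adjusted p = 0.126, 0.0900, 0.0755, 0.0557 and 0.101, against 0.0459 in edgeR's test as described). The 14 plus-strand tRNA genes held 2.66 to 2.88% of tRNA counts in MX, 3.38 to 5.54% with YAP1 and 4.37 to 5.29% with YAP1-S127A. This split was chosen after its values were seen and was not tested.

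Shares within the mitochondrial counts do not depend on how libraries are scaled, and they moved much less than the total. The highest and lowest library differed 15.6-fold in the mitochondrial share of all counts, but 1.52-fold in the rRNA part of mitochondrial counts and at most 2.27-fold in the part of any 1 gene among the protein-gene counts. The rRNA genes made up 11.2, 11.7 and 17.0% of mitochondrial counts in MX replicates 1, 2 and 3, 14.5, 14.1 and 12.5 in the YAP1 replicates and 15.0, 13.6 and 12.8 in the YAP1-S127A replicates. MX replicate 3, the library with the least mitochondrial RNA, had the highest rRNA part, and the groups overlapped (exact p = 0.907, adjusted p = 0.907). The tRNA genes made up 0.388 to 0.861% and the minus-strand genes 1.11 to 1.72% (exact p = 0.132, adjusted p = 0.264 and exact p = 0.300, adjusted p = 0.500). These and the values below come from the same exact permutation test over 3 groups on log2 shares, two-sided, for 20 measures with Benjamini-Hochberg adjustment over them. After adjustment 0 passed, and 5 had an unadjusted p under 0.05.

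Those 5 concerned the balance of complex I and complex IV, MT-ND1, MT-CO2 and the 2 rRNAs. The 7 complex I genes made up 36.7, 38.6 and 38.0% of the protein-gene counts in MX replicates 1, 2 and 3, 37.01, 39.9 and 39.7 in the YAP1 replicates and 42.8, 39.9 and 41.8 in the YAP1-S127A replicates (exact p = 0.0357, adjusted p = 0.186). The 3 complex IV genes made up 51.8, 49.9 and 50.6% of the protein-gene counts in MX replicates 1, 2 and 3, 52.1, 48.4 and 48.9 in the YAP1 replicates and 45.7, 48.1 and 46.8 in the YAP1-S127A replicates (exact p = 0.0464, adjusted p = 0.186). All YAP1-S127A libraries lay above all others for complex I and below all others for complex IV, by narrow margins. YAP1-S127A replicate 2 had 39.93% for complex I and YAP1 replicate 2 had 39.87%. For complex IV these libraries had 48.05 and 48.40%. These 2 parts make up most of the same total, so a higher part of 1 goes with a lower part of the other. MT-ND1 made up 3.92, 5.65 and 4.94% of the protein-gene counts in MX replicates 1, 2 and 3, 4.79, 5.93 and 6.33 in the YAP1 replicates and 7.55, 6.40 and 6.93 in the YAP1-S127A replicates (exact p = 0.0464, adjusted p = 0.186). YAP1-S127A did not overlap the other groups, and YAP1 overlapped MX. Per base, MT-ND1 had 0.273 ± 0.0619 (SD, n = 3) of the MT-CO1 level in MX, 0.352 ± 0.0646 with YAP1 and 0.457 ± 0.0702 with YAP1-S127A.

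MT-CO2 made up 9.78 to 10.8% of the protein-gene counts in MX, 11.5 to 12.3% with YAP1 and 10.4 to 11.6% with YAP1-S127A (exact p = 0.0429, adjusted p = 0.186), with no overlap of YAP1 and MX. The ratio of MT-RNR2 to MT-RNR1 counts was 5.19, 4.95 and 4.83 in MX replicates 1, 2 and 3, 5.60, 6.03 and 6.44 in the YAP1 replicates and 6.45, 5.67 and 6.49 in the YAP1-S127A replicates (exact p = 0.0214, adjusted p = 0.186). All MX ratios lay below those of both other groups. MT-ND3 made up 2.82 to 4.31% in MX, 2.01 to 3.64% with YAP1 and 1.9 to 2.28% with YAP1-S127A (exact p = 0.107, adjusted p = 0.238), the widest relative range of the 13 genes. MT-CO1 made up 27.3 to 30.1%, 24.9 to 27.8% and 23.1 to 26.7% (exact p = 0.0786, adjusted p = 0.224). MT-CYB and MT-ND4L differed least between group means of YAP1-S127A and MX, with log2 differences in share of 0.00 and 0.02. Between 2 groups of 3 libraries an exact permutation test cannot go below p = 0.1.

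**Figure D4:**
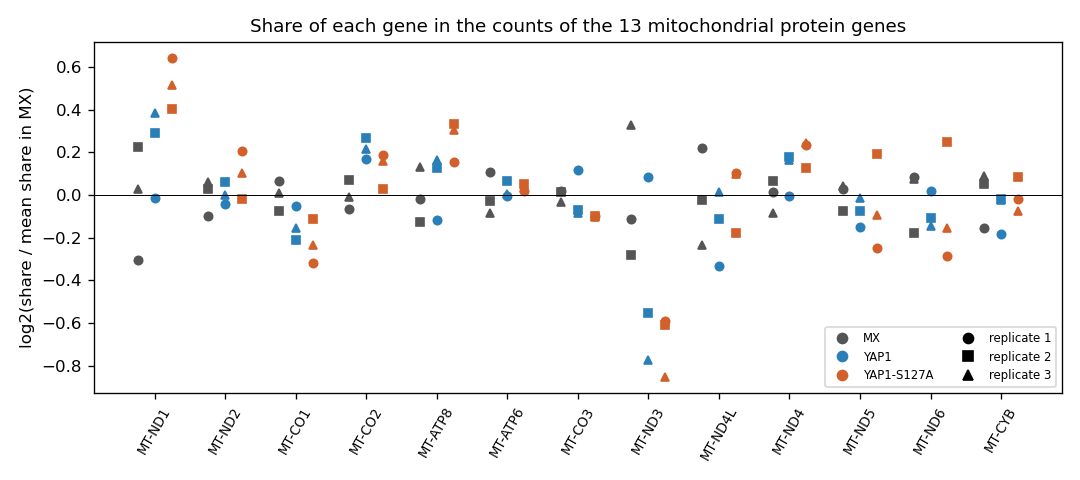
Share of each gene in the counts of the 13 protein genes, as the log2 ratio to the mean share in MX, 1 point per library. YAP1-S127A libraries lie above the other groups for MT-ND1, and MT-ND3 has the widest spread, with MX replicate 3 highest and YAP1-S127A replicate 3 lowest.

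Nuclear genes that make or regulate mitochondrial RNA were described by lists. Of 21 genes of mitochondrial transcription and the nucleoid (the protein-packed mitochondrial DNA) 0 rose and 1 fell with YAP1, 0 rose and 2 fell with YAP1-S127A against MX, and 0 differed between the constructs (0 at an unadjusted p under 0.05, 0 called by DESeq2 and 0 by limma-voom). Of all tested genes 3.58% fell with YAP1 and 8.84% with YAP1-S127A, shares close to those of this list. Between the constructs 12.3% of all tested genes had an unadjusted p under 0.05. Median log2 fold changes were -0.05, -0.04 and -0.01, beside -0.00361, -0.00449 and 0.00559 over all tested genes. TWNK, the helicase that replicates mitochondrial DNA, was at 45.3, 42.0 and 46.6 CPM in MX replicates 1, 2 and 3, 36.0, 27.99 and 31.4 in the YAP1 replicates and 32.6, 32.4 and 26.9 in the YAP1-S127A replicates. All libraries with a construct lay below all MX libraries, and TWNK had -0.55 (SE 0.13, adjusted p = 0.00430) with YAP1-S127A and -0.49 (SE 0.12, adjusted p = 0.01999) with YAP1. That with YAP1 was lost without MX replicate 3, YAP1 replicate 2 or YAP1 replicate 3. TOP1MT, the mitochondrial topoisomerase, had -0.40 (SE 0.14, adjusted p = 0.0465) with YAP1-S127A, a call lost without any 1 of 6 libraries, which were MX replicates 2 and 3, YAP1 replicates 2 and 3 and YAP1-S127A replicates 1 and 3. The TOP1MT call was also lost with non-robust dispersions, limma-voom and only the groups compared. TFAM, which packs and activates mitochondrial DNA, had -0.22 (SE 0.11, adjusted p = 0.205) and POLRMT, the mitochondrial RNA polymerase, 0.10 (SE 0.14, adjusted p = 0.683).

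Of 28 genes of mitochondrial RNA processing and decay, such as LRPPRC, which stabilises mitochondrial messenger RNAs, and ELAC2, which cuts out tRNAs, 0 passed edgeR's test in the 3 comparisons. With YAP1, with YAP1-S127A and between the constructs, those with an unadjusted p under 0.05 numbered 1, 5 and 1, beside 19.8%, 31.3% and 12.3% of all tested genes, and DESeq2 called 0, 1 and 0 and limma-voom 0, 1 and 0. The 3 with the smallest p for YAP1-S127A against MX were REXO2, a mitochondrial exonuclease, at 0.31 (SE 0.11, adjusted p = 0.0517), FASTKD1, at 0.38 (SE 0.15, adjusted p = 0.0843), and MTPAP, the mitochondrial poly(A) polymerase, at -0.30 (SE 0.12, adjusted p = 0.101). LRPPRC had -0.15 (SE 0.11, adjusted p = 0.375) with YAP1-S127A and ELAC2 -0.20 (SE 0.12, adjusted p = 0.283).

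Among 17 regulators of mitochondrial biogenesis the clearest differences went down, while the medians stayed near 0. Median log2 fold changes were 0.04 with YAP1 and -0.04 with YAP1-S127A, and 14 of the 17 did not pass in either comparison with MX. PPARGC1A, the coactivator that drives biogenesis, was at 9.13, 5.86 and 7.03 CPM in MX replicates 1, 2 and 3, 3.26, 2.89 and 2.26 in the YAP1 replicates and 3.05, 2.92 and 2.73 in the YAP1-S127A replicates. All libraries with a construct lay below all MX libraries, and it fell with YAP1, by 1.40 (SE 0.22, adjusted p = 3.60e-04) on the log2 scale, and with YAP1-S127A, by 1.35 (SE 0.22, adjusted p = 2.34e-04). ESRRG, an estrogen-related receptor that works with it on energy metabolism genes, was at 9.70, 6.53 and 8.003 CPM in MX replicates 1, 2 and 3, 2.12, 2.55 and 3.06 in the YAP1 replicates and 2.44, 1.84 and 1.79 in the YAP1-S127A replicates. It fell by 1.65 (SE 0.22, adjusted p = 7.47e-05) with YAP1 and by 2.02 (SE 0.23, adjusted p = 4.63e-06) with YAP1-S127A. Both were low in level, and both calls held without any 1 library. In this list 1 rose and 2 fell with YAP1, where 3.23% of all tested genes rose and 3.58% fell. With YAP1-S127A 0 rose and 3 fell, where 9.53% of all tested genes rose and 8.84% fell. The other calls were MYC with YAP1, at 0.47 (SE 0.14, adjusted p = 0.0450), and TFEB, a regulator of lysosomal genes, with YAP1-S127A, at -0.52 (SE 0.16, adjusted p = 0.0254). The MYC call was lost without MX replicates 1 or 2, YAP1 replicates 1, 2 or 3 or YAP1-S127A replicate 1, taken singly, and that of TFEB without MX replicates 2 or 3 or YAP1-S127A replicate 3. That of MYC was also lost with total counts, total counts without mitochondrial genes, non-robust dispersions and limma-voom (adjusted p = 0.151, 0.0641, 0.0564 and 0.0526). That of TFEB was also lost with only the groups compared (adjusted p = 0.0539). Between the constructs edgeR called 0 of the 17 (2 at an unadjusted p under 0.05, beside 12.3% of all tested genes, 0 called by DESeq2 and 0 by limma-voom).

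Mitophagy removes whole mitochondria, and fusion and fission reshape them. Of 15 such genes 0 passed edgeR's test with YAP1 (3 at an unadjusted p under 0.05, 0 called by DESeq2 and 0 by limma-voom) and 0 between the constructs (0 at an unadjusted p under 0.05, 0 called by DESeq2 and 0 by limma-voom). Of all tested genes 19.8% had an unadjusted p under 0.05 with YAP1 and 12.3% between the constructs. In all, 3 rose and 0 fell with YAP1-S127A against MX, where 9.53% of all tested genes rose and 8.84% fell. These were MFN1, an outer-membrane fusion GTPase, at 0.42 (SE 0.11, adjusted p = 0.0126); PINK1, the kinase that marks damaged mitochondria, at 0.51 (SE 0.15, adjusted p = 0.0191); and FIS1, a fission adaptor, at 0.46 (SE 0.14, adjusted p = 0.0304). When libraries were scaled to their total counts, the median of all genes in this comparison became -0.28, and the log2 fold changes of these 3 genes were 0.14, 0.26 and 0.20 and none was called. Single libraries ended each of these calls, for MFN1 MX replicate 3 or YAP1-S127A replicates 1 or 3, for PINK1 MX replicate 1 or YAP1-S127A replicate 2 and for FIS1 MX replicates 1 or 3 or YAP1-S127A replicates 2 or 3. The FIS1 call was also lost with only the groups compared.

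The nuclear-encoded partners of the mitochondrial subunits were described by a list of 31 genes of complexes I to V. With YAP1 0 rose and 1 fell, where 3.23% of all tested genes rose and 3.58% fell. With YAP1-S127A against MX 1 rose and 1 fell, where 9.53% of all tested genes rose and 8.84% fell. Between the constructs edgeR called 0 (2 at an unadjusted p under 0.05, beside 12.3% of all tested genes, 0 called by DESeq2 and 0 by limma-voom). Median log2 fold changes were -0.19 and -0.12, whereas those of the 13 mitochondrial protein genes were 0.75 and 2.32. COX7A2, a small subunit of complex IV, was at 68.9, 99.4 and 81.1 CPM in MX replicates 1, 2 and 3, 83.5, 112 and 111 in the YAP1 replicates and 117, 114 and 148 in the YAP1-S127A replicates. It rose with YAP1-S127A by 0.60 (SE 0.15, adjusted p = 0.00771), a call lost without YAP1-S127A replicate 3 and with scaling to total counts, where the log2 fold change was 0.33. ATP5PD, of the stalk of ATP synthase, fell by 0.42 (SE 0.12, adjusted p = 0.0243), a call lost without MX replicates 2 or 3 or YAP1-S127A replicates 1, 2 or 3. NDUFB8, an accessory subunit of complex I, had -0.60 (SE 0.18, adjusted p = 0.0496) with YAP1, a call lost without any 1 of 8 of the 9 libraries. It was also lost with another scaling (RLE size factors), non-robust dispersions, limma-voom and only the groups compared.

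**Figure D5:**
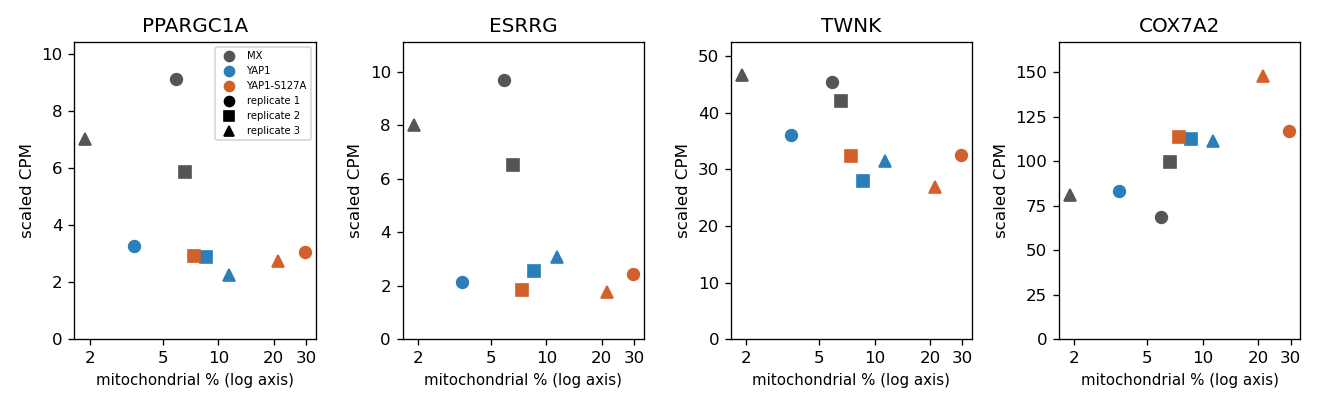
Scaled CPM of PPARGC1A, ESRRG, TWNK and COX7A2 against the mitochondrial percent of counts (log axis), 1 point per library. The MX libraries lie above the libraries with a construct for PPARGC1A, ESRRG and TWNK at whatever mitochondrial percent they had.

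Measures of RNA and library quality are given beside the mitochondrial share. A list of 18 histone genes and other RNAs was drawn up as RNAs without a poly(A) tail. Whether each of them lacks a tail in these cells was not tested. Over the counts outside the mitochondrial genome, the sum of this list was at 91.4, 107 and 109.8 CPM in MX replicates 1, 2 and 3, 384, 169 and 83.6 in the YAP1 replicates and 105, 93.4 and 125 in the YAP1-S127A replicates. YAP1 replicate 1 was far above the others, and the YAP1-S127A libraries lay close to MX. Of 7 tested members edgeR called 1, HIST1H2BD with YAP1, at -0.67 (SE 0.20, adjusted p = 0.0471), a call lost without any 1 of 8 of the 9 libraries. It was also lost with no filter on low counts, non-robust dispersions and only the groups compared. RN7SK, RMRP, RPPH1 and RN7SL1 were at 0 in all libraries. Nuclear-retained long RNAs summed to 678 to 1410.4 CPM of these counts in MX, 909.9 to 1086 with YAP1 and 622 to 1089.7 with YAP1-S127A, and MEG3 was at 0. Of 5 tested, SNHG14, a low long RNA, rose with each construct, by 4.69 (SE 0.53, adjusted p = 3.69e-06) with YAP1-S127A. In MX replicates 1, 2 and 3 SNHG14 was at 0.107, 0.121 and 0.0376 scaled CPM, below the level the filter asks for. It entered the test only through libraries in which it was higher, so its calls are no independent support for a difference. Cytosolic ribosomal protein genes took 4.69 to 6.08% of these counts. Genes detected numbered 21568 to 22991 with YAP1-S127A, 22345 to 23156 with YAP1 and 22115 to 25491 in MX. The part of RNA quality in the mitochondrial result was not tested.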

How the data were processed

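The authors deposited 1 table of counts per gene, which are whole numbers and differ in total between libraries. The submitters' processing notes list Salmon 1.9.0, HISAT2 and Cufflinks without saying what each did, and name the mouse build GRCm39, although the table lists human genes. No source used here names the human build, the program that counted or its strand setting.

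Counts of all genes were filtered with edgeR's filterByExpr, which left 15492 genes, scaled by TMM and fitted together over the 9 libraries with edgeR 4.0.16 in R 4.3.3 (robust quasi-likelihood, group as the only term), two-sided with Benjamini-Hochberg adjustment. The SE of a log2 fold change is its size divided by the square root of F. Shares were tested by exact permutation of libraries. Members, lists and tests were chosen with earlier results of these data known. All 37 genes are covered; of each list up to 3 members per comparison with the smallest p were named, with TFAM, POLRMT, LRPPRC and ELAC2 added after their values were seen. Alternatives were other scalings and filters, non-robust dispersions, DESeq2 1.42.0, limma-voom (limma 3.58.1), only the groups compared, the replicate number as a block, and each library left out. No pair of libraries of a group agreed within sampling noise (chi-square per degree of freedom at least 12.3). The steps were tested on simulated data. No human sequence was used here. A further marker list is not reported here.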

Additional observations from a re-analysis of the deposited data

How the results depend on the processing

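For YAP1-S127A against MX, where edgeR called 7 mitochondrial genes, the count was 11 with no filter on low counts, 27 with non-robust dispersions, 27 with DESeq2 and 27 with limma-voom. It was 5 to 14 with 1 library left out (14 without YAP1-S127A replicate 2). Of all tested genes, 3003 of 31983 were called with no filter, and 2840, 3091 and 2840 of 15492 with the other settings in that order. With no filter 37 mitochondrial genes were tested in place of 29. Those tested only there had 0 MX libraries at the level the filter asks for, so they add no independent support. For YAP1 against MX, where it was 0, the count was 1 with total counts, 2 with no filter, 1 with DESeq2 and 0 to 1 with 1 library left out. Between the constructs, where it was 0, it was 2 with total counts, 4 with no filter, 2 with non-robust dispersions, 2 with DESeq2, 2 with only the groups compared and 0 to 2 with 1 library left out. With the replicate block the counts were 0, 6 and 1. Same-numbered libraries shared little (correlation of deviations -0.178 to 0.204, over 0.1 in 1 of 9 pairs, best match with the own number in 6 of 18), so the numbers were not taken as pairs. The causes of these changes were not tested. The exact p of the mitochondrial share over 3 groups was 0.0464 to 0.304 with 1 library left out and 0.306 with the replicate block. Under each alternative 0 composition measures passed, of 20, or of fewer where overlapping protein genes were left out. With the replicate block the smallest p the design allows is 0.0278. A measure alone at that value could not pass after adjustment over 20. Differences in share between YAP1-S127A and MX changed sign for 7 measures, all within 0.0909 of 0 on the log2 scale.

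Over 29 genes, 3 comparisons and the alternatives, 1515 of 1645 values kept their direction and side of the threshold, 18 lost a call and 105 gained one. In YAP1 against MX some log2 fold changes turned negative, never called. With 1 library left out they ran from -0.847 to 1.04 for MT-TG, -0.178 to 0.496 for MT-TN, -0.111 to 0.811 for MT-TY and -0.0868 to 1.33 for MT-TH, each lowest without YAP1 replicate 3. MT-TN and MT-TY were also negative without MX replicate 3 (-0.0129 and -0.0238), and MT-TG with limma-voom (-0.0139). Over all tested genes the calls, 1055, 2845 and 305, were 601 to 1423, 1847 to 3079 and 126 to 465 with 1 library left out. With total counts they were 990, 4447 and 616, and with the replicate block 1428, 3426 and 472. For YAP1 against MX they were 1282 with no filter and 1246 with DESeq2. Between the constructs they were 520 with no filter, 280 with non-robust dispersions, 475 with DESeq2 and 478 with only the groups compared. Of the 22 tRNA genes, 8 had too few counts to be tested, and the part of sequencing depth in this was not tested.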

Other observations

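Copies of mitochondrial genes in the nuclear genome carried counts that ran in parallel with the mitochondrial genes. By their symbols 407 such copies were in the table, of which 65 had any count and 3 a mean of at least 10 CPM of total counts. These were the pseudogenes MTND2P28, MTATP6P1 and MTCO1P12, neighbours on chromosome 1 at 629640 to 630683, 633696 to 634376 and 631074 to 632616 in the positions of the table. MTND2P28 was at 207, 260.0 and 65.6 CPM in MX replicates 1, 2 and 3, 103, 324 and 434 in the YAP1 replicates and 1337, 234 and 830.1 in the YAP1-S127A replicates. Like its mitochondrial counterpart it was highest in YAP1-S127A replicates 1 and 3 and lowest in MX replicate 3. Its counts were 4.96 to 6.43% of those of MT-ND2 in the 9 libraries, those of MTATP6P1 4.06 to 5.83% of MT-ATP6 and those of MTCO1P12 0.240 to 0.320% of MT-CO1. Against MX the log2 fold changes with YAP1-S127A were 2.51, 2.43 and 2.30 (edgeR adjusted p = 0.133, 0.117 and 0.116), beside 2.48, 2.32 and 2.06 for MT-ND2, MT-ATP6 and MT-CO1. Near-identical copies can take reads of the mitochondrial genes, and the counts do not separate the sources, so the levels of these 3 mitochondrial genes may be understated.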
